A study of Homo sapiens with 18 samples.

Results

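The alpha-arrestin genes *TXNIP*, *ARRDC1*, *ARRDC2*, *ARRDC3* and *ARRDC4* were followed together with *MLXIP*, which encodes the glucose-responsive transcription factor MondoA, and *MLX*, which encodes its dimerization partner. These 7 genes were taken by name from the 45372 gene symbols measured by RNA sequencing, and all 7 were found. The set was chosen by measured values of these same libraries, because earlier results had shown lower *TXNIP* and *ARRDC4* in THP1 cells given IACS and higher *ARRDC3* in MV4-11 cells given IACS. The levels of the DMSO libraries by line also entered the choice. Every difference of the members between IACS and DMSO, between the DMSO-treated lines or between the timepoints is therefore a description. Calls and p-values are printed for some of these differences, and no conclusion rests on them.

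The 18 libraries came from MV4-11 and THP1 (THP-1 in the sample labels), established human lines of acute myeloid leukemia with a rearranged *KMT2A* gene. Of the 9 libraries of a line, 3 came from DMSO-treated cells, 3 from treatment with 50 nM IACS-010759 (IACS), which inhibits mitochondrial complex I, for 8 h, and 3 from the same dose for 24 h. Both timepoints were set against the same 3 DMSO libraries, whose own time of harvest is not given in the sources used here. Replicates were independent treatments of 1 cell line, so each cell line stands for itself and not for a class of AML. In such bulk samples, fewer cells of a type and less RNA per cell cannot be told apart. Values are TPM, the usual length-normalised transcript abundance, which corrects read numbers for transcript length and gives every library the same total.

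Alpha-arrestins are adaptor proteins that bring membrane proteins to ubiquitin ligases of the NEDD4 family and so to endocytosis. TXNIP binds thioredoxin and takes glucose transporters off the cell surface, and ARRDC4, its closest relative, also restrains glucose uptake. MondoA and MLX enter the nucleus when phosphorylated glucose accumulates and bind a carbohydrate response element, made of a pair of E-box-like sequences set 5 bases apart, and *TXNIP* and *ARRDC4* are their best known targets.

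The upstream sequence of the 3 members by which the set was chosen is shown first, because MondoA acts through elements near the start of *TXNIP* and *ARRDC4*. The sequences are the 250 bases before a transcription start, from RefSeq on GRCh38.p14 and read 5′ to 3′ on the strand of the gene, and capitals mark an E-box or a pair of E-box-like blocks. The windows are *TXNIP* at chr1:145996580-145996829 on the minus strand, *ARRDC4* at chr15:97960453-97960702 on the plus strand and *ARRDC3* at chr5:91383318-91383567 on the minus strand. In the list they follow in that order.
TXNIP: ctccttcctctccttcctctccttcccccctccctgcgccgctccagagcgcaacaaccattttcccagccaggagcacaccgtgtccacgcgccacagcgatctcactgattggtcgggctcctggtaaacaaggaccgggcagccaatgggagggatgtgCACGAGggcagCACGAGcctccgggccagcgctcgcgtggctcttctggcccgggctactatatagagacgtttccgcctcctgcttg
ARRDC4: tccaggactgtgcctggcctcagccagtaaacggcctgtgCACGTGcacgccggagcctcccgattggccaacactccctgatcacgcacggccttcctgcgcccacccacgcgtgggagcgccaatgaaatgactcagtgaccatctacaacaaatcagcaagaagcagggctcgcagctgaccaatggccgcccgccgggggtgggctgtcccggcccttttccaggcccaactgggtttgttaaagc
ARRDC3: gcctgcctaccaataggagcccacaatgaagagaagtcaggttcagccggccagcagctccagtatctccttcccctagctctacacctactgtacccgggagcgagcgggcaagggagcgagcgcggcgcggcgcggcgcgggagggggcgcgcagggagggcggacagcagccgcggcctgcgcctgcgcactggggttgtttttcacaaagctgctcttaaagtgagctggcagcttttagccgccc

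In all, 10 windows matched the 7 genes, since *TXNIP*, *ARRDC2* and *ARRDC3* each have 2 annotated starts. The E-box searched was CACGTG, which reads the same on both strands. It was found 210 bases before the start of *ARRDC4* and 50 bases before the start of *MLX*, and 6.35% of all 35116 promoter windows of this length held one. The *TXNIP* window held no complete E-box. It held the paired form 88 bases before the start, with both blocks 1 mismatch from CACGTG and 5 bases between them, an arrangement present in 119 of the windows (0.339%). CCAAT boxes, searched on both strands, stood 140 and 105 bases before the start of *TXNIP* and 187, 128 and 67 bases before that of *ARRDC4*. The other members had 1 each, 80 (*ARRDC1*), 93 (*ARRDC2*), 241 (*ARRDC3*), 76 (*MLXIP*) and 66 (*MLX*) bases before a start. Of all windows 32.0% had at least 1. Neither start of *ARRDC3* carried an E-box or the paired form in these windows. A match of letters is a description of the window and not a site of binding, which was not measured.

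**Figure D1:**
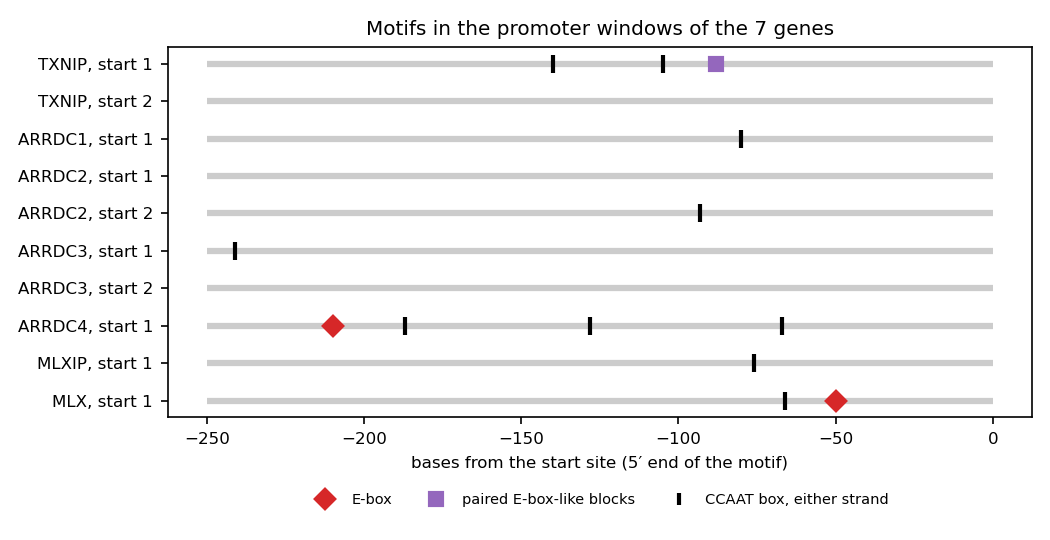
Positions of the motifs in the 250 bases before each of the 10 annotated starts of the 7 genes. The x axis gives the distance of the motif's 5′ end from the start in bases, and each grey line is 1 window. The paired E-box-like blocks appear at *TXNIP* only among these windows, and the complete E-box at *ARRDC4* and *MLX*.

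The genes lie on 7 chromosomes of GRCh38 (GENCODE release 44). *TXNIP* spans chr1:145992435-145996579 on the minus strand, *ARRDC3* chr5:91368631-91383317 on the minus strand and *ARRDC1* chr9:137605685-137615360 on the plus strand. *MLXIP* spans chr12:122078756-122147344, *ARRDC4* chr15:97960703-97973833, *MLX* chr17:42567072-42573239 and *ARRDC2* chr19:18001132-18014102, all on the plus strand. No other annotated gene overlaps the exons of *TXNIP*, *ARRDC4* and *MLXIP*. Exons of the other 4 are overlapped by a gene on the opposite strand, which is *ARRDC1-AS1* at *ARRDC1*, an unnamed gene at *ARRDC2*, *ARRDC3-AS1* at *ARRDC3* and *PSMC3IP* at *MLX*. *ARRDC1* is also overlapped by a gene on its own strand. The library kit does not mark strand, so reads in those bases cannot be told apart. Over the 18 libraries *ARRDC3-AS1* measured 0.656 to 2.03 TPM and *ARRDC1-AS1* 7.57 to 18.6 TPM, the highest beside 48.3 TPM of *ARRDC1* in the same library. The levels of the genes opposite *ARRDC2* and *MLX* were not examined.

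Depth was recovered from the step between low values that 1 read makes. Over annotated genes it came to about 21700000 to 28600000 reads per library (median 24100000). *TXNIP* then rested on 1074 to 9259 reads per library, *ARRDC3* on 320 to 2134 and *ARRDC4* on 125 to 672. Abundant noncoding RNAs, the 5 genes *RPPH1*, *RMRP*, *RN7SK*, *RN7SL1* and *RN7SL2*, took 39.6% to 60.1% of a library's TPM, and the other genes share what is left. The myeloid identity of the cell lines was checked on marker genes. At least 1 TPM was found for 9 of 10 myeloid markers in MV4-11 (*ITGAM* was under it) and for 10 of 10 in THP1, and for 0 of 8 markers of other lineages in either line. Of 4 genes typical of *KMT2A*-rearranged leukemia, 4 reached 1 TPM in MV4-11 and 3 in THP1, where *MEIS1* was at 0.013 TPM.

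In cells given DMSO, the cell lines carried different amounts of 4 of the 5 alpha-arrestins while the intervals for the sensor genes included 0. *ARRDC3*, an adaptor of the β2-adrenergic receptor and of integrin β4, measured 6.21, 5.82 and 6.67 TPM in MV4-11 and 38.6, 32.0 and 26.7 TPM in THP1. *TXNIP* measured 105, 99.9 and 125 TPM in MV4-11 and 196, 184 and 226 TPM in THP1. *ARRDC4* measured 6.72, 6.37 and 7.0003 TPM in MV4-11 and 18.7, 15.4 and 14.6 TPM in THP1. For these 3 genes every THP1 library lay above every MV4-11 library. *ARRDC2* went the other way, with 25.0, 26.5 and 25.5 TPM in MV4-11 and 12.5, 14.1 and 9.68 TPM in THP1.

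The difference THP1 minus MV4-11 on the log2(TPM + 1) scale was 2.20 for *ARRDC3* (95% interval 1.85 to 2.54, limma over 14915 genes) and 1.16 for *ARRDC4* (interval 0.83 to 1.48). It was 0.87 for *TXNIP* (interval 0.60 to 1.14) and -1.04 for *ARRDC2* (interval -1.36 to -0.73). A gene was called where limma's adjusted p was under 0.05 and the log2 fold change beyond 0.58 in either direction. With this rule 4 of the 7 members were called, 3 higher and 1 lower in THP1, beside 38.3% of all genes tested, and nothing is read from that count. The Kruskal-Wallis and Dunn tests, which here ranked all 18 libraries of the 6 groups together, called *ARRDC3* and not *TXNIP*, *ARRDC2* or *ARRDC4*. IACS libraries thus entered these ranks, so the missing calls do not speak on the DMSO libraries alone. In 5 of 7 members the libraries of the lines did not overlap, as in 61.7% of all genes.

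*ARRDC1*, which drives the budding of small vesicles from the plasma membrane, was at 33.0, 34.5 and 36.2 TPM in MV4-11 and 48.2, 48.8 and 36.8 TPM in THP1, a difference of 0.35 (interval -0.08 to 0.78). *MLXIP* was at 13.0, 12.9 and 11.3 TPM in MV4-11 and 14.2, 14.9 and 11.1 TPM in THP1, with a difference of 0.09 (interval -0.33 to 0.52). *MLX* was at 29.6, 31.4 and 26.2 TPM in MV4-11 and 34.8, 31.7 and 26.7 TPM in THP1, with a difference of 0.09 (interval -0.25 to 0.43). The libraries of both lines overlapped for *MLXIP* and *MLX* and did not for *ARRDC1*. The ratio of *MLXIP* to *MLX* within a library was 0.427 ± 0.015 (SD, n = 3) in MV4-11 and 0.431 ± 0.034 in THP1. The remaining family members were close to absent. *ARRDC5* reached at most 1.45 TPM in any library, on 2 to 25 reads, and *MLXIPL*, which encodes the MondoA paralog ChREBP, at most 1.85 TPM.

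**Figure D2:**
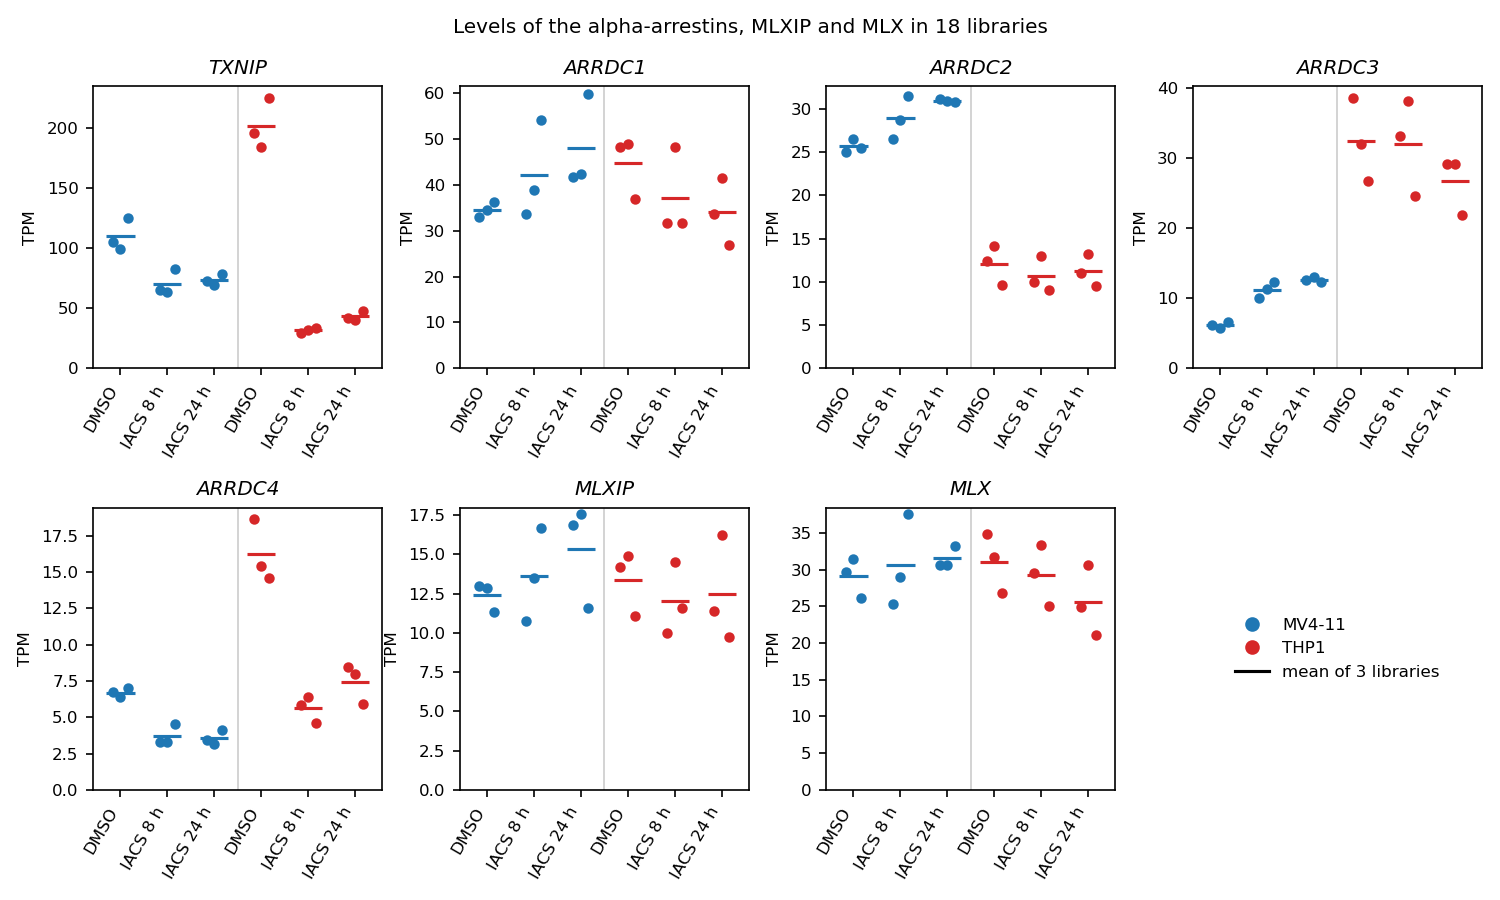
TPM of the 7 members in each of the 18 libraries by group (blue, MV4-11, red, THP1), with a line at the mean of 3 libraries, each panel on its own linear axis from 0. The mean of *TXNIP* in THP1 was 202 TPM with DMSO and 31.9 TPM after 8 h of IACS, whereas *MLXIP* and *MLX* overlapped between the groups of each line.

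With IACS, *TXNIP* was lower in both lines. In THP1 it measured 29.2, 32.4 and 34.0 TPM after 8 h and 41.8, 40.7 and 48.1 TPM after 24 h, which is 15.8% and 21.6% of the DMSO mean of 202 ± 21.2 TPM (SD, n = 3). In MV4-11 it measured 65.3, 63.8 and 83.1 TPM after 8 h and 73.2, 69.3 and 78.8 TPM after 24 h, 64.2% and 66.9% of the DMSO mean of 110.2 ± 13.3 TPM. No IACS library overlapped the DMSO libraries of its line, which was also so for 8.79% of all genes at 8 h and 24.7% at 24 h in MV4-11, and for 4.76% and 13.5% in THP1. The log2 fold change was -2.62 (SE 0.14, 95% interval -2.92 to -2.33) at 8 h and -2.19 (interval -2.48 to -1.89) at 24 h in THP1. In MV4-11 it was -0.64 (SE 0.14, interval -0.93 to -0.34) and -0.57 (interval -0.86 to -0.27). Although DMSO-treated THP1 held more *TXNIP* than MV4-11, every IACS library of THP1 lay below every IACS library of MV4-11.

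*ARRDC4* was also lower in both lines, with a smaller difference than *TXNIP* in THP1. After 8 h of IACS it measured 5.83, 6.39 and 4.62 TPM in THP1 and after 24 h 8.44, 8.01 and 5.91 TPM, which is 34.6% and 45.9% of the DMSO mean of 16.2 ± 2.15 TPM. In MV4-11 it measured 3.29, 3.27 and 4.54 TPM after 8 h and 3.45, 3.16 and 4.09 TPM after 24 h, 55.3% and 53.3% of the DMSO mean of 6.70 ± 0.317 TPM. Here too no IACS library overlapped the DMSO libraries of its line. The log2 fold changes were -1.38 (SE 0.17) and -1.03 in THP1 and -0.72 (SE 0.14) and -0.76 in MV4-11. The pseudocount of 1 makes the log2 scale understate the change of a gene at this level, and with a pseudocount of 0.1 the THP1 value at 8 h was -1.52.

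The ratio of *TXNIP* to *ARRDC4*, taken within a library and so free of the scaling of the library, moved in opposite directions in the lines. In MV4-11 it was 15.7, 15.7 and 17.9 with DMSO, 19.8, 19.5 and 18.3 after 8 h of IACS and 21.2, 21.9 and 19.2 after 24 h. In THP1 it was 10.5, 11.97 and 15.4 with DMSO, 5.002, 5.08 and 7.37 after 8 h and 4.96, 5.09 and 8.14 after 24 h. In both lines the IACS libraries lay outside the DMSO range of this ratio, above it in MV4-11 and below it in THP1. At 8 h in MV4-11 the gap was narrow. The lowest value there, 18.3 in replicate 3, rested on 172 reads of *ARRDC4* and stood beside 17.9 with DMSO.

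*ARRDC3* differed in direction from *TXNIP* and *ARRDC4* in MV4-11. In MV4-11 it measured 9.97, 11.3 and 12.3 TPM after 8 h of IACS and 12.5, 13.0 and 12.4 TPM after 24 h, 180% and 203% of the DMSO mean of 6.23 ± 0.428 TPM, and all 6 IACS libraries were above the DMSO libraries. The log2 fold change there was 0.75 (SE 0.11, interval 0.50 to 1.00) at 8 h and 0.91 (interval 0.67 to 1.16) at 24 h. In THP1 it measured 33.1, 38.1 and 24.6 TPM after 8 h and 29.2, 29.2 and 21.8 TPM after 24 h, overlapping the DMSO libraries of 26.7 to 38.6 TPM. The log2 fold change was -0.03 (SE 0.20) at 8 h and -0.27 at 24 h in THP1, the latter -0.15 with median-of-ratios scaling, -0.14 without DMSO replicate 1 and -0.13 without 24 h replicate 3. Even so, MV4-11 after 24 h held less *ARRDC3* than any THP1 library.

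In THP1 *ARRDC3* and *MLX* varied together over the 9 libraries (r = 0.923), and both ran against the share of the noncoding RNAs (r = -0.92 and -0.927). The ratio of *ARRDC3* to *MLX* within a library was 1.11, 1.01 and 0.999 with DMSO, 1.12, 1.14 and 0.983 after 8 h and 1.17, 0.953 and 1.04 after 24 h in THP1. In MV4-11 the same ratio was 0.210, 0.185 and 0.255 with DMSO, 0.393, 0.390 and 0.327 after 8 h and 0.409, 0.423 and 0.372 after 24 h. The groups of THP1 overlapped on this ratio, and the IACS libraries of MV4-11 all stood above the DMSO libraries. The ratio of *ARRDC3* to *ARRDC4* was higher with IACS in both lines. It was 0.930 ± 0.020 (SD, n = 3) with DMSO, 3.07 ± 0.378 after 8 h and 3.59 ± 0.539 after 24 h in MV4-11, and 1.99 ± 0.140, 5.66 ± 0.322 and 3.596 ± 0.123 in THP1.

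*ARRDC1* and *ARRDC2* differed less from DMSO. *ARRDC1* in MV4-11 measured 33.7, 38.8 and 54.0 TPM after 8 h and 41.7, 42.3 and 59.8 TPM after 24 h, with log2 fold changes of 0.25 (SE 0.18) and 0.44 (interval 0.05 to 0.83). The first was 0.06 without 8 h replicate 3 and 0.40 without 8 h replicate 1, and the second 0.28 without 24 h replicate 3. In THP1 *ARRDC1* ranged from 31.6 to 48.3 TPM after 8 h and from 26.9 to 41.5 TPM after 24 h, overlapping its DMSO range of 36.8 to 48.8 TPM. *ARRDC2* in MV4-11 measured 26.5, 28.7 and 31.5 TPM after 8 h and 31.1, 30.9 and 30.8 TPM after 24 h, with log2 fold changes of 0.16 (SE 0.10) and 0.26 (interval 0.03 to 0.49), or 0.09 and 0.16 with median-of-ratios scaling. Without 8 h replicate 3 the 8 h value was 0.10. In THP1 *ARRDC2* lay between 9.02 and 14.1 TPM in all 9 libraries. The MV4-11 values of both genes at 24 h lay above all DMSO values, where 24.7% of all genes did not overlap either.

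The sensor genes overlapped their DMSO libraries. *MLXIP* ranged from 10.7 to 17.6 TPM in the IACS libraries of MV4-11 and from 9.73 to 16.2 TPM in those of THP1, with log2 fold changes between -0.15 and 0.27 in the 4 comparisons. The value of 0.27 (MV4-11, 24 h) was 0.16 without 24 h replicate 2, 0.45 without 24 h replicate 3 and 0.18 with median-of-ratios scaling. *MLX* ranged from 25.3 to 37.6 TPM and from 21.1 to 33.3 TPM, with log2 fold changes between -0.28 and 0.11. The groups overlapped in all 4 comparisons, and all 8 intervals of these fold changes included 0. They reached down to -0.59 for *MLXIP* (THP1, 8 h) and -0.66 for *MLX* (THP1, 24 h), so a loss up to those sizes lies within the intervals. The protein and its place in the cell were not measured.

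**Figure D3:**
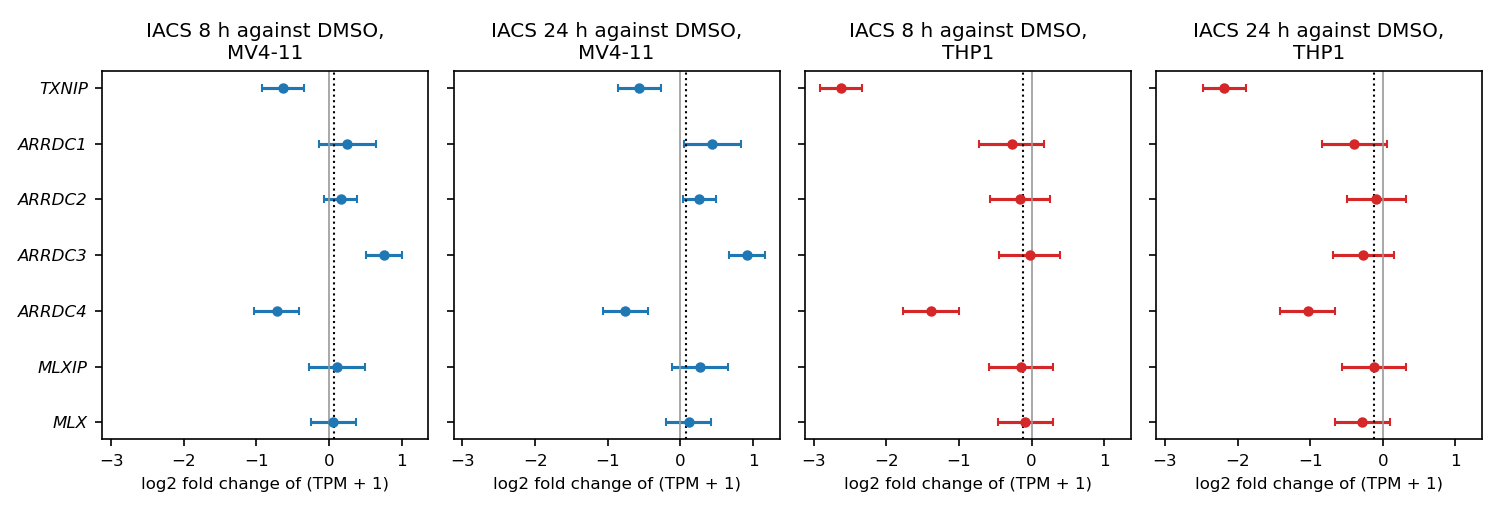
Log2 fold change of IACS against DMSO on the log2(TPM + 1) scale for the 7 members, with 95% intervals, in MV4-11 (blue) and THP1 (red) at 8 h and 24 h. The dotted line is the median of all genes tested, and *TXNIP* in THP1 lies farthest from it, at -2.62 and -2.19.

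The median of all genes was itself 0.06 and 0.08 in MV4-11 and -0.12 in THP1 at both timepoints. The share of the 5 noncoding RNAs was 47.3% to 49.7%, 39.6% to 51.9% and 42.9% to 47.9% in MV4-11 with DMSO, 8 h and 24 h of IACS, and 46.3% to 55.8%, 48.1% to 60.03% and 51.4% to 60.1% in THP1. With these 5 RNAs left out of the TPM, the median of all genes was 0.05 and 0.03 in MV4-11 and -0.02 and 0.01 in THP1. The cause of the shifts was not tested. Relative to the median of all genes in the deposited TPM, *TXNIP* in THP1 was at -2.50 and -2.07, *ARRDC4* at -1.26 and -0.92, and *ARRDC3* in MV4-11 at 0.69 and 0.84. On the same relative scale, at 8 h and 24 h, *MLXIP* was at 0.05 and 0.19 in MV4-11 and at -0.03 and 0.00082 in THP1. *MLX* was at -0.0009 and 0.04 in MV4-11 and at 0.04 and -0.17 in THP1.

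Called by the same rule, 0 of 7 members passed at 8 h in MV4-11 (limma), beside 0.0148% of the 13542 genes tested. At an unadjusted p under 0.05 with the same fold 3 passed, a setting whose share of all genes is not given here. The Kruskal-Wallis and Dunn tests, which rank the 3 groups of a line together, called 0. At 24 h in MV4-11 *ARRDC3* passed, beside 0.0886% of all genes. At 8 h in THP1 *TXNIP* and *ARRDC4* passed, beside 0.0144% of 13928 genes, and these were the only 2 genes called there. At 24 h in THP1 *TXNIP* passed, beside 0.0431%. Nothing can be read from these counts, since the members were selected on the same values. Libraries of the same number varied together in THP1 at 24 h and with DMSO. A block for that number added *ARRDC4* to the calls there, beside 2.13% of all genes. The calls of *ARRDC4* in THP1 at 8 h and of *ARRDC3* in MV4-11 at 24 h were lost on leaving out most single libraries. The fold changes kept their direction in every such fit. *ARRDC4* kept its call without DMSO replicate 3 or 24 h replicate 3 (-1.45 and -1.38) and lost it on leaving out any of the other 7, at -1.27 to -1.47. *ARRDC3* kept its call on leaving out any 8 h library or 24 h replicate 3 and lost it without any 1 DMSO library or 24 h replicate 1 or 2, at 0.87 to 0.96.

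The change in THP1 minus the change in MV4-11 at 8 h was -1.99 for *TXNIP* (interval -2.37 to -1.60), -0.78 for *ARRDC3* (interval -1.26 to -0.30) and -0.66 for *ARRDC4* (interval -1.13 to -0.20). At 24 h it was -1.62 for *TXNIP* (interval -2.004 to -1.23), -1.18 for *ARRDC3* (interval -1.67 to -0.70), -0.83 for *ARRDC1* (interval -1.45 to -0.22) and -0.28 for *ARRDC4* (interval -0.74 to 0.19). The intervals for *ARRDC2*, *MLXIP* and *MLX* included 0 at both timepoints, and the *MLX* value at 8 h, -0.14, turned to 0.07 with median-of-ratios scaling. The medians of all genes were -0.16 and -0.18 in these differences.

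Added together, the 5 alpha-arrestins made 307 ± 10.8 TPM (SD, n = 3) in DMSO-treated THP1, 117.3 ± 18.3 TPM after 8 h and 123 ± 10.3 TPM after 24 h of IACS. In MV4-11 the sums were 183 ± 15.002, 157 ± 25.2 and 169 ± 14.8 TPM. *TXNIP* supplied 65.7% ± 5.48 of the sum with DMSO, 27.6% ± 4.74 after 8 h and 35.8% ± 6.33 after 24 h in THP1. In MV4-11 it supplied 59.98% ± 2.36, 45.2% ± 1.70 and 43.8% ± 1.40. The share of *ARRDC3* in THP1 went from 10.6% ± 1.90 to 27.1% ± 3.29 and 21.6% ± 2.05, although its own TPM overlapped the DMSO libraries. Ordered by level, *TXNIP* was the highest of the 7 genes by mean in 5 of the 6 groups, overlapping *ARRDC1* in THP1 at 24 h, and not in THP1 at 8 h, where the ranges of *ARRDC1*, *ARRDC3*, *TXNIP* and *MLX* each overlapped the next. *ARRDC4* was the lowest in all 4 IACS groups, while *ARRDC3* was lowest in DMSO-treated MV4-11 (overlapping *ARRDC4*) and *ARRDC2* in DMSO-treated THP1 (overlapping *MLXIP*).

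**Figure D4:**
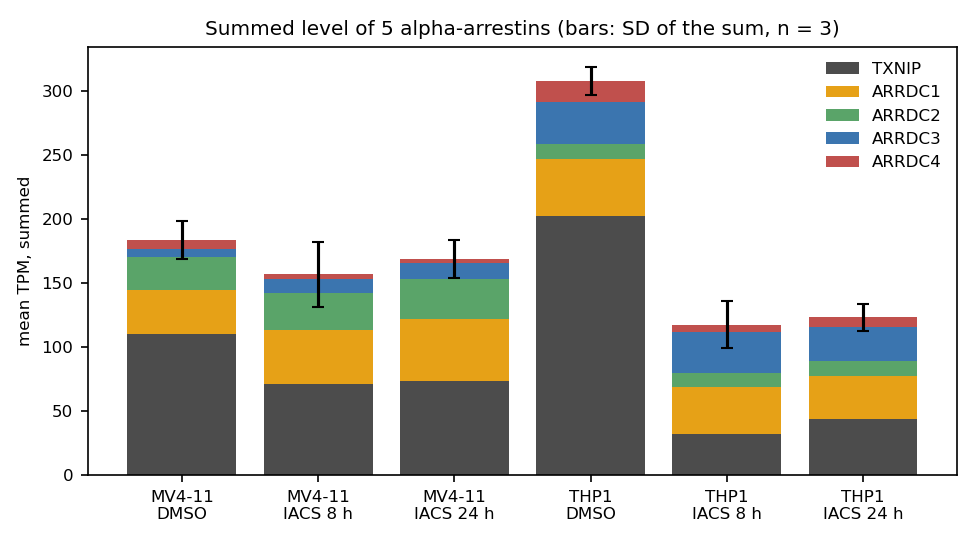
Mean TPM of the 5 alpha-arrestins stacked by gene in the 6 groups, with the SD of the sum over 3 libraries as the error bar. The THP1 sum went from 307 TPM with DMSO to 117.3 and 123 TPM with IACS, and *TXNIP* makes most of the difference.

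The contrast of 24 h and 8 h of IACS is the difference of the changes from DMSO that were known when the members were chosen. Its values are therefore a description too, and its p-values support no conclusion. In THP1 *TXNIP* was higher at 24 h than at 8 h. All 3 libraries at 24 h (40.7 to 48.1 TPM) were above all 3 at 8 h (29.2 to 34.0 TPM), a difference of 0.44 on the log2 scale (SE 0.14, interval 0.14 to 0.73, unadjusted p = 0.00718 by limma, adjusted p = 0.676). The deviations of same-numbered libraries went together for this contrast (r = 0.183, 0.277 and 0.357 across genes), and blocking on that number gave an adjusted p of 0.0237 (0.00904 to 1.00 over all alternatives). The difference was under the fold required for a call in either fit. *ARRDC4* in THP1 differed by 0.35 (interval -0.03 to 0.73, adjusted p = 0.989, 0.1 with the block and 0.0203 to 1.00 over all alternatives), with overlapping groups. In MV4-11 the difference was 0.07 for *TXNIP* (interval -0.23 to 0.36, adjusted p = 1.00) and 0.16 for *ARRDC3* (interval -0.08 to 0.41), whose 24 h libraries began at 12.4 TPM where the 8 h libraries ended at 12.3 TPM.

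Of the 7 members, 0 were called between the timepoints in either line by limma, 0 at an unadjusted p under 0.05 with the same fold, and 0 by the Kruskal-Wallis and Dunn tests. Over all genes, the share called was 0.0% in MV4-11 and 0.00718% in THP1. Blocking made it 0.00738% and 0.818%. In each line 1 member had groups that did not overlap, beside 4.28% of all genes in MV4-11 and 7.7% in THP1.

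Over the 18 libraries, after the mean of each cell line was subtracted, *TXNIP* and *ARRDC4* varied together (r = 0.905, and 0.972 and 0.936 within the 9 libraries of MV4-11 and THP1). *ARRDC3* ran against *TXNIP* in MV4-11 (r = -0.80) and not in THP1 (r = 0.159). These coefficients describe libraries that share treatments and DMSO controls. *TXNIP*, *ARRDC4* and *ARRDC3* were chosen by differences between the same groups, so their coefficients partly restate that choice. *ARRDC1*, *ARRDC2* and *MLX* varied with the composition of the library, with r = -0.871, -0.774 and -0.927 to the share of the 5 noncoding RNAs. The coefficient was -0.596 for *MLXIP*, -0.534 for *ARRDC3*, -0.44 for *ARRDC4* and -0.286 for *TXNIP*. Every library has the same TPM total, so the level of a gene and that share are not independent. The part of that composition in the small changes of *ARRDC1*, *ARRDC2*, *MLXIP* and *MLX* was not tested by itself. With the TPM rescaled by median-of-ratios factors, the *ARRDC1* change in MV4-11 at 24 h was 0.35 and that of *MLX* in THP1 at 24 h -0.17.

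Among the 8844 genes that averaged 5 TPM or more in both lines, those most like *TXNIP* over the 18 libraries included *KLF10* (r = 0.941), *TPMT* (0.805), *KLF11* (0.801) and *AIF1* (0.725). *KLF10* and *KLF11*, Krüppel-like repressors that were on the list of other MondoA or ChREBP targets, stood at places 1 and 3. No other gene of that list was among the first 5. The list was drawn up with earlier results of these data known, so these places are a description. *KLF10* measured 10.8, 9.78 and 10.6 TPM in DMSO-treated THP1, 5.17, 5.70 and 5.36 TPM after 8 h and 4.98, 5.45 and 5.48 TPM after 24 h of IACS, 52.0% and 51.0% of the DMSO mean with no overlap. In MV4-11 it went from 13.6, 13.7 and 14.2 TPM to 10.8, 9.86 and 15.2 TPM and to 11.1, 11.3 and 13.3 TPM. *KLF11* in THP1 measured 16.9, 17.1 and 16.5 TPM with DMSO, 10.6, 11.9 and 10.5 TPM after 8 h and 12.2, 13.5 and 10.6 TPM after 24 h, again without overlap with DMSO.

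Since *KLF10* and *KLF11* are given here for their likeness to *TXNIP* over the same libraries, their differences from DMSO are a description too. The log2 fold change of *KLF10* in THP1 was -0.83 (SE 0.13, interval -1.12 to -0.54) at 8 h and -0.86 (SE 0.13, interval -1.15 to -0.56) at 24 h. That of *KLF11* was -0.57 (interval -0.87 to -0.27) and -0.45 (interval -0.75 to -0.14). In MV4-11 *KLF10* was at -0.22 and -0.21 and *KLF11* at -0.20 and -0.03.

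**Figure D5:**
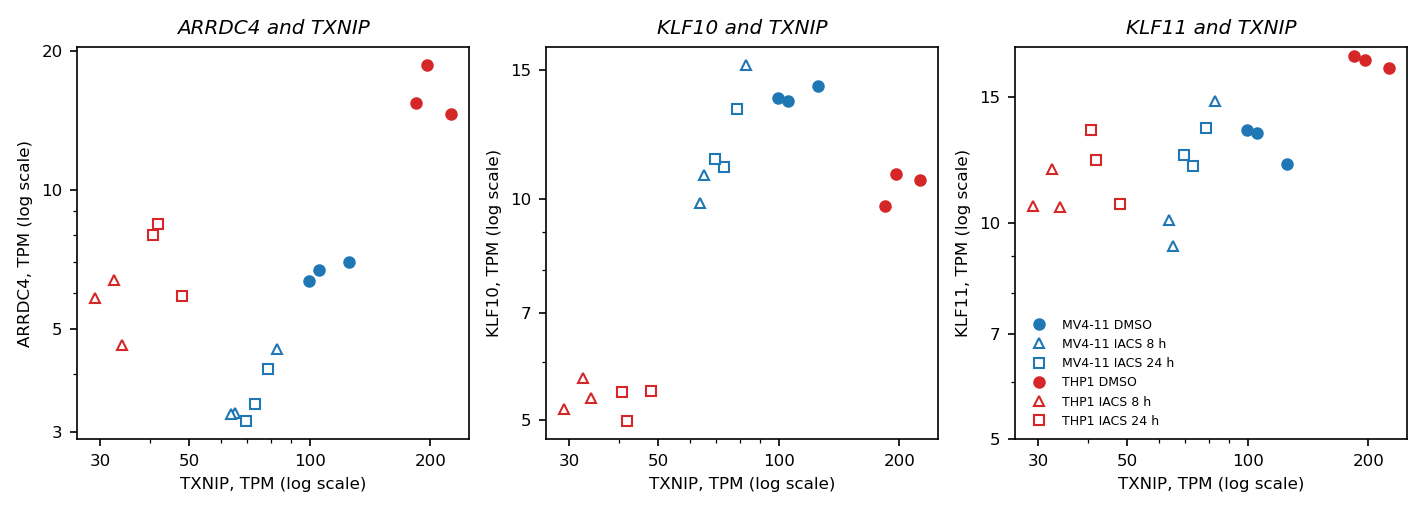
TPM of *ARRDC4*, *KLF10* and *KLF11* against that of *TXNIP* in the 18 libraries, both axes on a log scale, with MV4-11 in blue, THP1 in red, DMSO as filled circles, 8 h as open triangles and 24 h as open squares. In THP1 the IACS libraries (*TXNIP* 29.2 to 48.1 TPM) stand apart from the DMSO libraries (184 to 226 TPM) on all 3 genes.

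The 5 genes most like *ARRDC4* were *TXNIP* (r = 0.905), *KLF10* (0.881), *TMED2* (0.868), *SKP2* (0.858) and *PCNA* (0.853), the last 2 of which act in the cell cycle and in DNA replication. *PCNA* went from a mean of 395 TPM with DMSO to 319 TPM at both timepoints in MV4-11, and from 134 to 106 and 101 TPM in THP1. Those most like *ARRDC3* were *C5orf34* (0.920), *RENBP* (0.915), *MAN1B1* (0.889), *OARD1* (0.883) and *CD84* (0.882). *RENBP*, the renin-binding protein, went from a mean of 3.93 TPM with DMSO to 6.16 and 7.92 TPM with IACS in MV4-11 and was at 22.8, 25.2 and 21.7 TPM in THP1.

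The pathway around the members was taken as 6 lists of 68 genes. Against DMSO, limma called 0 of the 52 that could be tested in MV4-11 and 0 of 54 in THP1, at 8 h as at 24 h. At an unadjusted p under 0.05 with the same fold, 0 passed at 8 h and 1 (*HK3*) at 24 h in MV4-11, and 1 (*KLF10*) at 8 h and 2 (*KLF10* and *LDHA*) at 24 h in THP1. The share of all genes at this setting is not given here. Among 8 tested genes of the list of other MondoA or ChREBP targets, which holds glycolytic and lipogenic enzymes, the median log2 fold change was -0.21 and -0.13 in MV4-11 and -0.29 and -0.18 in THP1, beside 0.06, 0.08, -0.12 and -0.12 for all genes. *KLF10* was its lowest gene by the mean of the 4 values and *HK2*, a hexokinase, its highest, at 0.01, -0.06, 0.28 and 0.03.

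The glucose transporters and hexokinases gave medians of 0.02, 0.09, -0.04 and -0.19 in the same order, with *GPI*, which converts glucose 6-phosphate, lowest (-0.09, -0.22, -0.03 and -0.43) and the hexokinase *HK3* highest (0.14, 0.59, -0.06 and 0.12). The thioredoxin and peroxiredoxin system, to which TXNIP binds, gave -0.05, -0.13, -0.08 and -0.20, from the peroxiredoxin *PRDX1* (-0.10, -0.38, -0.11 and -0.42) to the mitochondrial reductase *TXNRD2* (0.19, 0.17, 0.00042 and -0.01). The NEDD4-family ligases and their adaptors gave 0.12, 0.14, -0.07 and -0.06, with the adaptors *NDFIP1* lowest (-0.04, -0.04, -0.07 and -0.20) and *NDFIP2* highest (0.22, 0.36, -0.03 and 0.07). For the Myc, Max and Mlx network the medians were 0.01, 0.19, -0.16 and -0.18, from *MXD3* (-0.02, 0.37, -0.56 and -0.46) to *MXI1* (0.16, 0.25, -0.09 and 0.22), both repressor partners of Max. The other arrestin-fold proteins, β-arrestins and VPS26 subunits, gave 0.00, 0.11, -0.09 and -0.09, between *VPS26A* (-0.06, -0.11, -0.14 and -0.06) and *VPS26C* (0.16, 0.20, 0.04 and 0.01). None of these genes was called against DMSO.

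Between the DMSO-treated lines, 24 of 55 tested list genes were called, 14 higher and 10 lower in THP1, beside 38.3% of all genes. Genes of the same family went in both directions, and those named here were picked after their values were seen. THP1 held more of the facilitative transporters *SLC2A1* (84.5 against 32.0 TPM) and *SLC2A5* (33.5 against 3.13 TPM) and of the ligases *NEDD4* (8.64 against 2.43 TPM) and *WWP1* (13.2 against 8.01 TPM). MV4-11 held more of *HK2* (41.4 against 12.5 TPM), *MYC* (201 against 77.4 TPM), *ARRB1* (33.1 against 18.3 TPM) and *ARRB2* (30.9 against 6.14 TPM). It also held more of the transporter *SLC2A3* (5.01 against 1.30 TPM), while THP1 held more of *HK3* (10.6 against 5.51 TPM) and *MYCL* (15.5 against 2.37 TPM). Between 8 h and 24 h of IACS 0 list genes were called in either line by limma, and at an unadjusted p under 0.05 with the same fold 0 in MV4-11 and 1, *SCD*, in THP1.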

How the data were processed

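RNA of 2 AML cell lines was sequenced in 18 libraries, 3 independent replicates in each of 6 groups. The authors prepared TruSeq libraries from total RNA, trimmed and filtered the paired-end reads, and used CLC Genomics Workbench for alignment (GRCh38) and quantification. The annotation release and the use of strand are not given in the sources used here. They deposited TPM per gene symbol.

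From the deposited TPM, log2(TPM + 1) was fitted with limma 3.58.1 in R 4.3.3 (variance trend, mean TPM of 1 or more), on 9 libraries within a line and on 18 between lines. P-values were adjusted by Benjamini-Hochberg over every gene fitted. The fits were run on simulated data with independent libraries, which do not carry the covariation of same-numbered libraries, and the outcome is not given here. The members and gene lists were chosen with earlier results of these data known. The other genes named are the ends of each list (mean of 4 changes, 5 TPM or more in both lines) and the 5 with the highest Pearson r to *TXNIP*, *ARRDC3* and *ARRDC4*, of which 1 is not reported here. *SLC2A1*, *SLC2A3*, *SLC2A5*, *NEDD4*, *WWP1*, *MYC*, *MYCL*, *ARRB1*, *ARRB2*, *LDHA* and *SCD* were chosen for naming after seeing their values.

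Depth came from low TPM values and GENCODE release 44 exon lengths, where 76.8% to 79.3% of low genes were whole reads within 0.02. Replicate numbers were taken as pairs where all 3 correlations of deviations from group means exceeded 0.1, which held for 24 h against DMSO in THP1 and 24 h against 8 h in both lines. Alternatives were a pseudocount of 0.1, no filter, 10 TPM, median-of-ratios scaling, TPM without the 5 noncoding RNAs, a replicate block, block and scaling together, unadjusted p, Kruskal-Wallis with Dunn tests, and leaving out each library. The Kruskal-Wallis and Dunn tests ranked the 3 groups of a line together, and all 6 groups between lines.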

Additional observations from a re-analysis of the deposited data

Results flagged for a closer look

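The response of *TXNIP* to IACS differed between the cell lines. The log2 fold change in THP1 minus that in MV4-11 was -1.99 at 8 h (-1.988, 95% interval -2.37 to -1.60) and -1.62 at 24 h (-1.6179, interval -2.004 to -1.23) in limma's fit of all 18 libraries, and with median-of-ratios scaling -1.77 and -1.39. All 12 IACS libraries were below the DMSO libraries of their line, so the difference is one of size and not of direction. Because *TXNIP* was selected on its fall in THP1, these values are a description.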

How the results depend on the processing

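Counts of members called describe genes selected on these values and support nothing. The count of members called in MV4-11 at 8 h was 0, and 1 with median-of-ratios scaling, 2 without the 5 noncoding RNAs, 1 with the replicate block, 1 with block and scaling, 3 by unadjusted p, and 0 to 1 on leaving out a library. In MV4-11 at 24 h it was 1, and 0 with no filter, 3 with scaling, 3 without the noncoding RNAs, 2 with the block, 3 with both, 2 by unadjusted p and 0 to 2 on leaving out a library. In THP1 at 8 h it was 2, and 1 with no filter, 1 at 10 TPM and 1 to 2 on leaving out a library. In THP1 at 24 h it was 1, and 2 with scaling, without the noncoding RNAs, with the block, with both and by unadjusted p, and 0 by the Kruskal-Wallis and Dunn tests. Those tests rank all libraries of a line together, so a group lying wholly between the other groups cannot pass, whatever its distance. *TXNIP* at 24 h in THP1 lay so, between 8 h and DMSO. Between DMSO-treated lines the count was 4, and 3 at 10 TPM and 1 by the Kruskal-Wallis and Dunn tests. Of all genes, the share called in MV4-11 was 0.0295% at 8 h and 0.606% at 24 h with scaling. It was 0.0738% and 0.738% with the block, and 0.0295% and 0.857% with both. In THP1 the shares in the same order were 0.0144% and 0.754%, 0.0646% and 2.13%, and 0.0287% and 1.28%. Between DMSO-treated lines they were 38.5%, 38.6% and 38.5%. Shares for the other settings and for unadjusted p are not given here. Cause was not tested.

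List genes called went from 0 to 1 with scaling, 1 without the noncoding RNAs, 2 with block and scaling and 1 by unadjusted p in MV4-11 at 24 h. In THP1 at 8 h they went from 0 to 1 with the block, with both and by unadjusted p. In THP1 at 24 h they went to 1 with scaling and 2 without the noncoding RNAs, with the block, with both and by unadjusted p, and for 24 h against 8 h in THP1 to 1 with the block, with both and by unadjusted p. For that last contrast 0.818% of all genes were called with the block and 0.919% with both. The shares against DMSO are those given above. For 24 h against 8 h, leaving out a library turned the sign of small differences. In MV4-11 these ran from -0.0001848 to 0.188 for *TXNIP*, -0.117 to 0.0878 for *ARRDC4* and -0.0687 to 0.207 for *MLX*. In THP1 they ran from -0.268 to 0.0811 for *ARRDC1*, -0.0397 to 0.213 for *ARRDC2* and -0.162 to 0.180 for *MLXIP*. Over all genes, the replicate block moved the calls from 2 to 10 and 12 to 100 in MV4-11 at 8 h and 24 h, from 2 to 9 and 6 to 296 in THP1, and from 1 to 114 for 24 h against 8 h in THP1.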
